A study of Mus musculus with 2 samples.

Results

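Krüppel-like factors (Klf) are zinc finger transcription factors, and 10 of their genes were described here in regulatory T (Treg) cells of mice with and without miR-125a: Klf2, Klf3, Klf4, Klf6, Klf7, Klf9, Klf10, Klf11, Klf12 and Klf13. They were selected by gene symbol in the platform annotation, which gave 36 of the array's 45101 probe sets, and each probe set was read separately. Klf2 and Klf4 were chosen by their low ratios in these same arrays, so these ratios are a description and not a finding that stands on its own. The miR-125a KO pool was RNA of CD4+CD25hi cells from the spleens of miR-125a-deficient mice, and the WT pool was RNA of the same sorted population from wild-type littermates. All mice were 6 to 8 weeks old, and in each genotype equal amounts of RNA from different mice were combined before hybridisation to 1 Affymetrix Mouse Genome 430 2.0 array. How many mice stood behind a pool, their sex, and whether miR-125a was missing in all cells or in T cells alone are not given in the sources used here.

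All members of this family bind GC-rich or CACCC-type DNA through zinc fingers at the carboxy terminus, and they differ in the cofactors that the rest of the protein recruits. Klf2, Klf4, Klf6 and Klf7 mostly activate transcription, Klf9, Klf10, Klf11 and Klf13 can recruit the corepressor Sin3a, and Klf3 and Klf12 recruit the corepressor CtBP. In T cells Klf2 keeps resting cells quiescent and lets them recirculate, and it is switched off when the T cell receptor is triggered. Klf13 has been described as a target of the miR-125 family and activates Ccl5, the chemokine RANTES, late after T cell activation.

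The microRNA missing from the KO mice is shown beside miR-125b, since the seeds, which pair with target transcripts, bear on Klf13 as a possible target. Sequences are from RefSeq (GRCm38.p6), and capitals mark the seed, bases 2 to 8.
miR-125a-5p: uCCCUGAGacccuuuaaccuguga
miR-125a-3p: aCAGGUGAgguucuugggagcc
miR-125b-5p: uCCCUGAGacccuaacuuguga
The seed of miR-125a-5p is the same as that of miR-125b-5p, whose genes lie on chromosomes 9 and 16, whereas miR-125a lies on chromosome 17. MicroRNA levels were not analysed here.

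The signals are MAS5 values on a linear scale, scaled by MAS5 to the same trimmed mean on both arrays. The log2 ratio is log2 of the miR-125a KO signal plus 16.3 over the WT signal plus 16.3, so it understates differences of dim probe sets. Probe sets were counted where their signal averaged 62.5 or more over the arrays, which is the median of all, and 19229 of those naming 1 gene passed. There was 1 array per genotype, so no difference below has a replicate check or a p-value. The probe-set SD comes from the SD of the difference in log2 ratio between a gene's 2 brightest probe sets at that signal. That SD is divided by the square root of 2 to describe 1 probe set, and it leaves out variation between mice. Of the 6 Treg and T cell markers all passed the minimum on these arrays, with Foxp3 at 694 in the miR-125a KO and 1631 in the WT pool, Il2ra, which encodes CD25, at 18551 in the KO and 15390 in the WT pool, and Cd4 at 641 in the KO and 715 in the WT pool. Ikzf2 stood at 1821 in the KO and 1332 in the WT pool, and Ctla4 at 16803 in the KO and 16623 in the WT pool. Cd3e had 1438 in the KO and 1920 in the WT pool.

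Klf2 and 1 of the 2 probe sets of Klf4 were lower by 2-fold or more in the miR-125a KO pool, and no member was at least 2-fold higher. Of the 36 probe sets 28 passed the signal minimum, with all 10 genes among them. At least 2-fold lower were 2 of the 28, against 1.38% of all probe sets naming 1 gene, and at least 2-fold higher were 0 of the 28, against 1.03%. At 1.5-fold 3 of the 28 were lower, against 7.15% of all probe sets, and at 3-fold 0 of the 28, against 0.203%. Because the low ratios helped to choose the members, nothing is read from that contrast. The other 26 lay within 2-fold. Below 0 were 18 of the 28, against 52.5% of all probe sets. The median log2 ratio of the 28 was -0.18, and that of all 19229 was -0.02. Without Klf2 and Klf4, a choice made with their values known, 15 of 25 were below 0, with a median of -0.09.

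**Figure D1:**
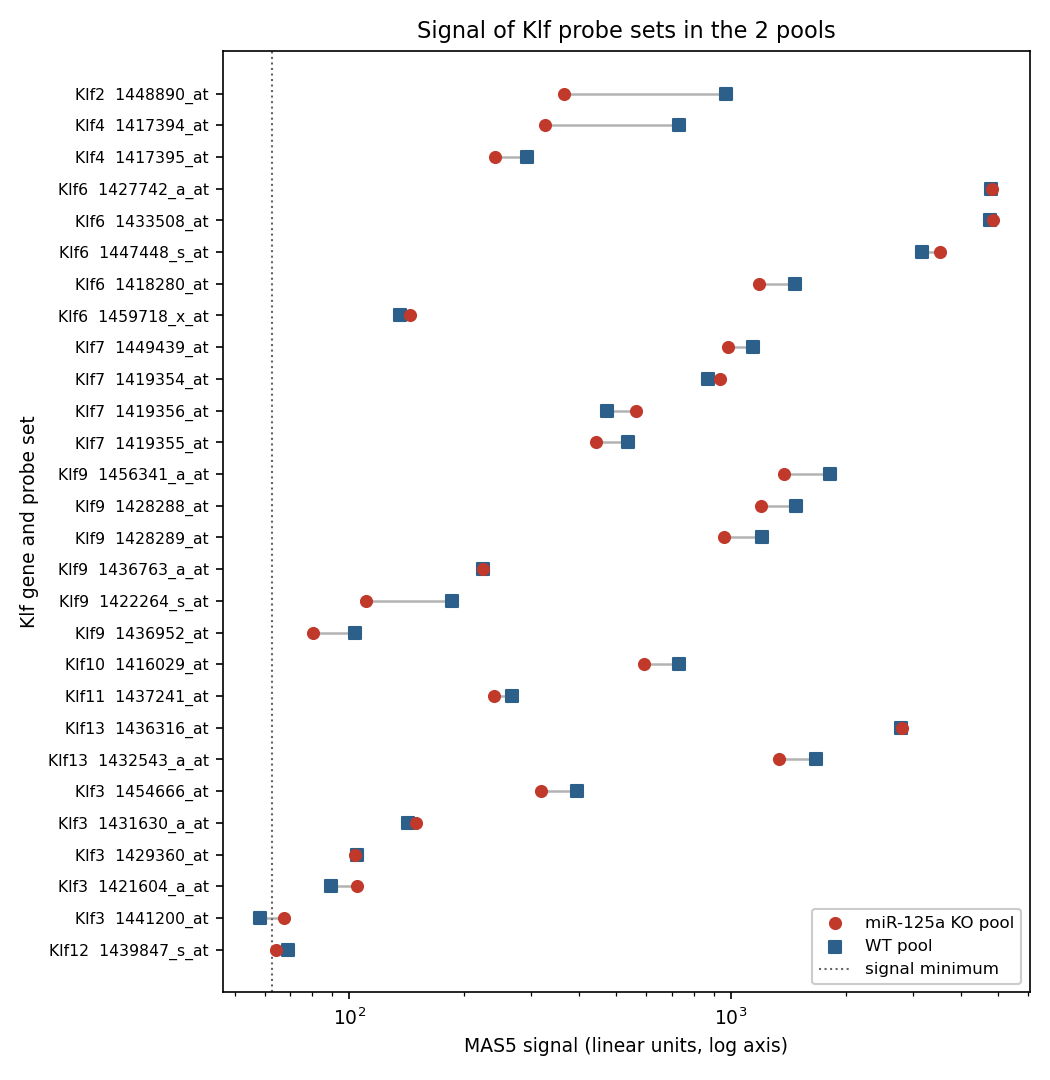
MAS5 signal (horizontal, log axis) of the 28 Klf probe sets past the signal minimum, 1 row each, as circles for the miR-125a KO pool and squares for the WT pool, each symbol being 1 array. The widest gaps are those of Klf2, at 366 in the KO pool and 971 in the WT pool, and of the brighter Klf4 probe set, at 326 in the KO pool and 732 in the WT pool, while the circles and squares of the 2 brightest Klf6 probe sets nearly coincide.

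Klf2, the quiescence factor, had a signal of 366 in the miR-125a KO pool and 971 in the WT pool. Its log2 ratio was -1.37 (probe-set SD 0.24), 2.59-fold lower in the KO pool. Both signals were well above the minimum, and among the 19229 probe sets its ratio was the 72nd lowest. In its signal group, from 635 to 849, 0.888% of probe sets were at least 2-fold lower. Klf2 was read by 1 probe set only, so its ratio has no second measurement on these arrays.

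Klf4, which restrains the proliferation of T cells in mice, had a signal of 326 in the miR-125a KO pool and 732 in the WT pool at its brighter probe set. Its log2 ratio there was -1.13 (probe-set SD 0.27), 2.18-fold lower. The dimmer Klf4 probe set stood at 241 in the KO pool and 293 in the WT pool, and its log2 ratio was -0.27 (probe-set SD 0.32). The probe sets of Klf4 thus lay on the same side of 0 but differed by more than their probe-set SDs, although the annotation traces them to 1 source sequence. Of 44 genes whose brightest probe set was at least 2-fold lower and that had a second one past the minimum, the second was also at least 2-fold lower in 22.

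Klf6 and Klf7, the other mostly activating members, differed by less than 2-fold at every probe set past the minimum. Klf6, an early response gene of many cell types, had 4836 in the miR-125a KO pool and 4817 in the WT pool at its brightest probe set, a log2 ratio of 0.01 (probe-set SD 0.16). The next, at 4864 in the KO pool and 4766 in the WT pool, had 0.03. The signs of these 2 ratios turned with the array scaling. The 5 probe sets of Klf6 ranged from -0.31 to 0.15, and the lowest, at 1183 in the KO pool and 1473 in the WT pool, was the 1 of the 5 that was lower by more than its probe-set SD of 0.20. Klf7, known for its role in developing neurons, had 4 probe sets from 1 source sequence, 2 above and 2 below 0, from -0.27 to 0.24. At the brightest of them it stood at 980 in the KO pool and 1144 in the WT pool. None of the 4 Klf7 ratios exceeded its probe-set SD.

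**Figure D2:**
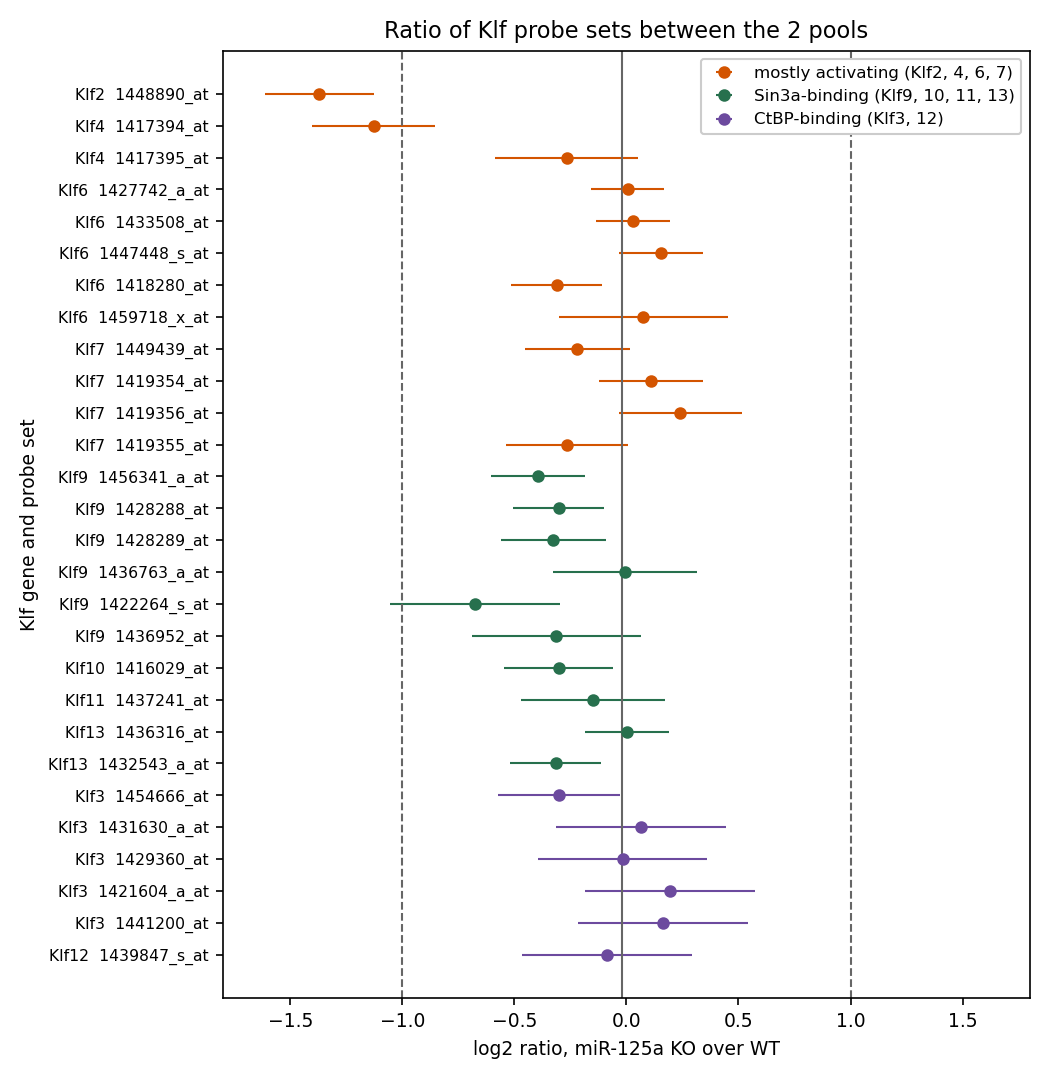
Log2 ratio of miR-125a KO over WT (horizontal) for the same 28 Klf probe sets, coloured by the cofactor class of the protein. Bars are the probe-set SD at that signal, not a replicate error, the solid line is the median of all probe sets (-0.02) and dashed lines mark 2-fold. Klf2 and 1 Klf4 probe set lie beyond the left dashed line, and the 6 Klf9 probe sets lie between -0.68 and -0.01.

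The Sin3a-binding members differed by less than 2-fold in all 10 of their probe sets past the minimum. A ratio below 0 was found in 9 of the 10, against 52.5% of all probe sets. Lower by more than the probe-set SD were 6 of the 10, against 22.9% of all probe sets, and the median log2 ratio was -0.31. Klf9, which glucocorticoids and thyroid hormone induce, supplied 6 of the 10. Its brightest probe set stood at 1380 in the KO pool and 1820 in the WT pool, and its log2 ratio was -0.39 (probe-set SD 0.21). The next had 1198 in the KO pool and 1482 in the WT pool, and the third 958 in the KO pool and 1205 in the WT pool, at log2 ratios of -0.30 and -0.33. Klf9 was thus lower in all 3 of its bright probe sets by about the same amount, each by more than its probe-set SD. Of the dimmer Klf9 probe sets, 1 was at 110 in the KO pool and 186 in the WT pool, a log2 ratio of -0.68 (probe-set SD 0.38). That was the member ratio nearest to the 2-fold threshold among those within it, as the -1.13 of Klf4 was among those beyond it. Another dim Klf9 probe set had 224 in the KO pool and 225 in the WT pool, and its ratio of -0.01 turned above 0 with each of 3 other array scalings. Of the 7 Klf9 probe sets, 3 come from 1 source sequence.

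Klf10, a factor induced by TGF-beta that in mice is needed for full Treg function, stood at 590 in the miR-125a KO pool and 731 in the WT pool. Its log2 ratio was -0.30 (probe-set SD 0.24). Klf11, a close relative of Klf10 that TGF-beta also induces, stood at 239 in the KO pool and 267 in the WT pool, and its log2 ratio was -0.15 (probe-set SD 0.32). Each of them was read by 1 probe set.

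Klf13, the member described as a miR-125 target, was close to equal in the pools at 1 probe set and lower in the miR-125a KO pool at another. Its brightest probe set had 2801 in the KO pool and 2796 in the WT pool, a log2 ratio of 0.00 (probe-set SD 0.19) whose sign turned with the array scaling. Its second had 1338 in the KO pool and 1670 in the WT pool, a log2 ratio of -0.32 (probe-set SD 0.20). The third Klf13 probe set was below the minimum. Ccl5, the gene Klf13 activates, had 210 in the KO pool and 325 in the WT pool, with a log2 ratio of -0.59. CD8 T cells and NK cells also use Ccl5, and their 4 markers summed to 5710 in the KO pool and 8805 in the WT pool. Most of these sums was Klrd1, at 5065 in the KO pool and 7919 in the WT pool, and the other 3 were at most 332 in the KO pool and 438 in the WT pool. The part of such cells in the Ccl5 ratio was not tested.

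The CtBP-binding members were dim and showed no shared direction. Klf3, which represses Lgals3 in mice, had 318 in the miR-125a KO pool and 396 in the WT pool at its brightest probe set, a log2 ratio of -0.30 (probe-set SD 0.27). Its other 4 probe sets past the minimum had log2 ratios from -0.02 to 0.19, each within the probe-set SD, and 2 more were below the minimum. Klf12 was near or below the minimum in all 5 of its probe sets. The 1 that passed stood at 64.1 in the KO pool and 69.1 in the WT pool. Over both genes 3 of 6 probe sets were below 0, against 52.5% of all probe sets. The 8 member probe sets below the minimum had signals from 4.35 to 59.8 in the KO pool and from 3.04 to 55.5 in the WT pool, and no ratio is given for them.

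**Figure D3:**
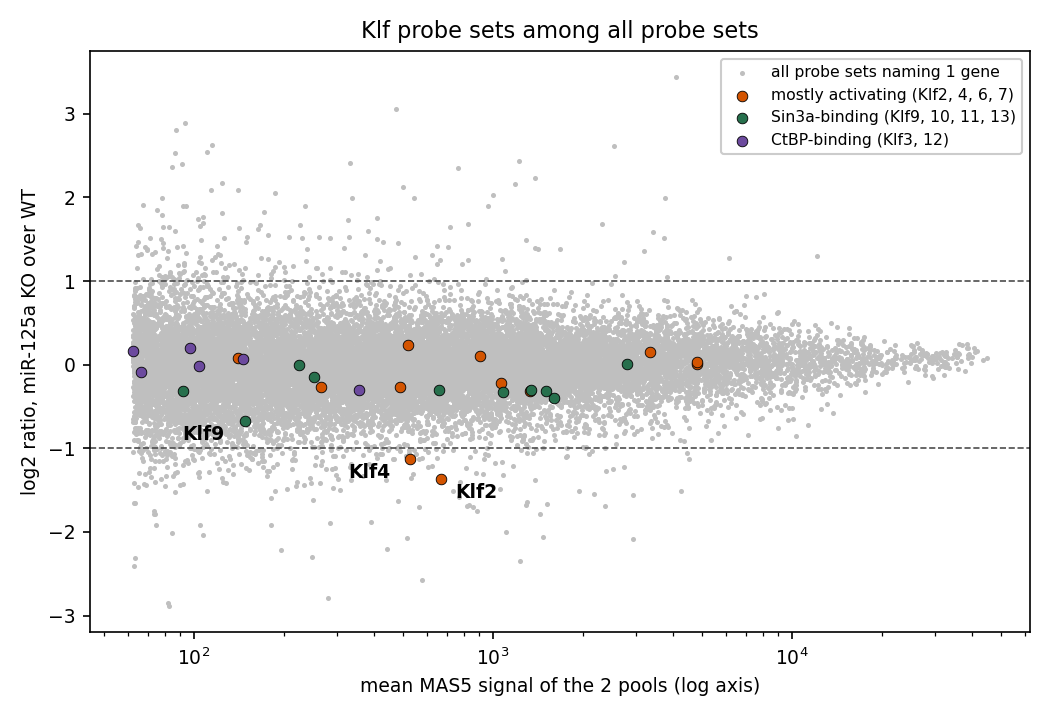
Log2 ratio of miR-125a KO over WT (vertical) against the mean signal of the pools (horizontal, log axis) for the 19229 probe sets naming 1 gene (grey) and the 28 Klf probe sets (coloured by cofactor class). Dashed lines mark 2-fold. Klf2, at -1.37, and 1 Klf4 probe set, at -1.13, lie below the lower line, and the nearest other member is a Klf9 probe set at -0.68.

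The promoters of Klf2 and Klf4 are shown because these were the members at least 2-fold lower. They run from 250 bases before to 50 after the annotated start (RefSeq, GRCm38.p6), Klf2 at chr8:72318812-72319111 on the plus strand and Klf4 at chr4:55532426-55532725 on the minus strand. Capitals mark GC boxes (GGGCGG), MEF2-type sites (CTANNNNTAG) and the CACCC box, whose letters are its name, each searched on both strands.
Klf2: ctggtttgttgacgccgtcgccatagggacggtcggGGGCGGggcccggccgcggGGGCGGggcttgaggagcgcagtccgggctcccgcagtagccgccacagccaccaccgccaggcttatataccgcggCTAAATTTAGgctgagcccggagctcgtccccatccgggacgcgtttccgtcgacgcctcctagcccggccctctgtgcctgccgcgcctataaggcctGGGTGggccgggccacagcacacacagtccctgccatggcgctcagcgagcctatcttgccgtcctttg
Klf4: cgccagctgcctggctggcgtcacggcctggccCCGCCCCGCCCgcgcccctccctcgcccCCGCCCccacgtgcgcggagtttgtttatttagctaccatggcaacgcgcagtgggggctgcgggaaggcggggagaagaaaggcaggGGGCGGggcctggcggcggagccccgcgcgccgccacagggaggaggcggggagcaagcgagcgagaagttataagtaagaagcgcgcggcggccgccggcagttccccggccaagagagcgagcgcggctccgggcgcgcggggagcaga
The Klf2 window holds 2 GC boxes, 1 CACCC box and 1 MEF2-type site, the last beginning at position -118 from the start. The Klf4 window holds 4 GC boxes, 2 of which overlap by their end bases, and neither of the other 2 motifs. A GC box occurs in 35.7% of 32851 promoters of the same length, a CACCC box in 57.5% and the MEF2-type site in 3.69%. The motif of the FOXO factors (TGTTTAC, both strands) occurs in 3.65% and, among the 9 members that matched a promoter in the table, in Klf9 alone, while the MEF2-type site occurs in Klf2 alone. The 9 had a median GC content of 69.3% against 52.7% over all promoters. A match to these letters is a description and does not show that a factor binds.

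Genes placed above Klf2 differed by less than 2-fold. MEF2 factors, which the kinases Mapk7 and Map2k5 activate, and FOXO factors induce Klf2, and ubiquitin ligases such as Smurf1, Wwp1 and Fbxw7 mark Klf2 for degradation. Of the 29 probe sets of this list past the minimum 0 were at least 2-fold lower, against 1.38% of all probe sets. At least 2-fold higher were 0, against 1.03%. Below 0 were 18, against 52.5%, and the median log2 ratio was -0.17. Foxo1, the main FOXO factor of T cells, had 5267 in the miR-125a KO pool and 4410 in the WT pool, a log2 ratio of 0.26 (probe-set SD 0.16), and its 3 probe sets past the minimum were all above 0. Mef2a went the other way, with 1205 in the KO pool and 1590 in the WT pool and a log2 ratio of -0.40. Its 5 probe sets past the minimum were all below 0. Foxo3 had log2 ratios of -0.35 and -0.30 at its brighter probe sets and 0.25 at its dimmest. Mef2d had -0.26 at its brightest probe set, and 0.14 and 0.27 at the others. Map2k5 ranged from -0.35 to 0.45, the highest ratio of the list. Mapk7 stood at 225 in the KO pool and 220 in the WT pool. Fbxw7, at 1177 in the KO pool and 1559 in the WT pool, had a log2 ratio of -0.40.

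Genes that need KLF2 in T cells were below 0 in all 6 probe sets past the minimum, against 52.5% of all probe sets, with a median log2 ratio of -0.28, and none was at least 2-fold lower. With arrays scaled to equal medians Ccr7 turned above 0, which left 5 of 6 below. They are the receptors that guide T cells out of tissue or into lymph nodes, and the receptor of IL-7. S1pr1, the exit receptor and a direct KLF2 target, stood at 424 in the miR-125a KO pool and 444 in the WT pool, a log2 ratio of -0.06 (probe-set SD 0.27). Ccr7, the lymph node homing receptor, stood at 15429 in the KO pool and 15481 in the WT pool. Itgb7, an integrin chain of gut homing, had 2523 in the KO pool and 3269 in the WT pool, a log2 ratio of -0.37 (probe-set SD 0.19). Il7r had 7884 in the KO pool and 9328 in the WT pool at its brighter probe set, a log2 ratio of -0.24, and -0.68 at the other. S1pr4, another sphingosine 1-phosphate receptor, had 1850 in the KO pool and 2325 in the WT pool, a log2 ratio of -0.33 (probe-set SD 0.21). S1pr1 and Ccr7 were thus within the probe-set SD, while Itgb7, Il7r and S1pr4 were lower by more than it. Over the list this held for 4 of the 6 probe sets, against 22.9% of all probe sets.

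Genes reported to be higher in KLF2-deficient T cells of mice did not share a direction. Il4, the type 2 cytokine, was 5.08-fold higher, at 1283 in the miR-125a KO pool and 239 in the WT pool. Cxcr3, a chemokine receptor, had 665 in the KO pool and 1287 in the WT pool, a log2 ratio of -0.94 (probe-set SD 0.23). Eomes, a T-box factor, had 501 in the KO pool and 636 in the WT pool at its brighter probe set, a log2 ratio of -0.33, and -0.01 at the other. The list's median log2 ratio was -0.17 over 4 probe sets.

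Among genes linked to the other members, 13 of 17 probe sets past the minimum were below 0, against 52.5% of all probe sets. The median log2 ratio was -0.23. At least 2-fold higher were 0, against 1.03%, and 1 was at least 2-fold lower, against 1.38%. The 1 was Foxp3, which Klf10 has been reported to activate, at a log2 ratio of -1.21 (probe-set SD 0.20). Lgals3, the galectin gene that Klf3 represses, had 7349 in the miR-125a KO pool and 13338 in the WT pool, a log2 ratio of -0.86. Tgfb1, a reported target of Klf10, had 1044 in the KO pool and 1401 in the WT pool, a log2 ratio of -0.42. Cdkn1a, the cell cycle inhibitor p21 that Klf4 activates, had 12734 in the KO pool and 11865 in the WT pool, a log2 ratio of 0.10 (probe-set SD 0.16). Cdkn1b, the related inhibitor p27, had 2217 in the KO pool and 3348 in the WT pool, a log2 ratio of -0.59 (probe-set SD 0.19), and -0.82 at its other probe set. Fkbp5, which glucocorticoids induce as they do Klf9, had 1800 in the KO pool and 1663 in the WT pool, a log2 ratio of 0.11. Its dimmer probe set past the minimum went the other way, at 186 in the KO pool and 253 in the WT pool, -0.42.

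**Figure D4:**
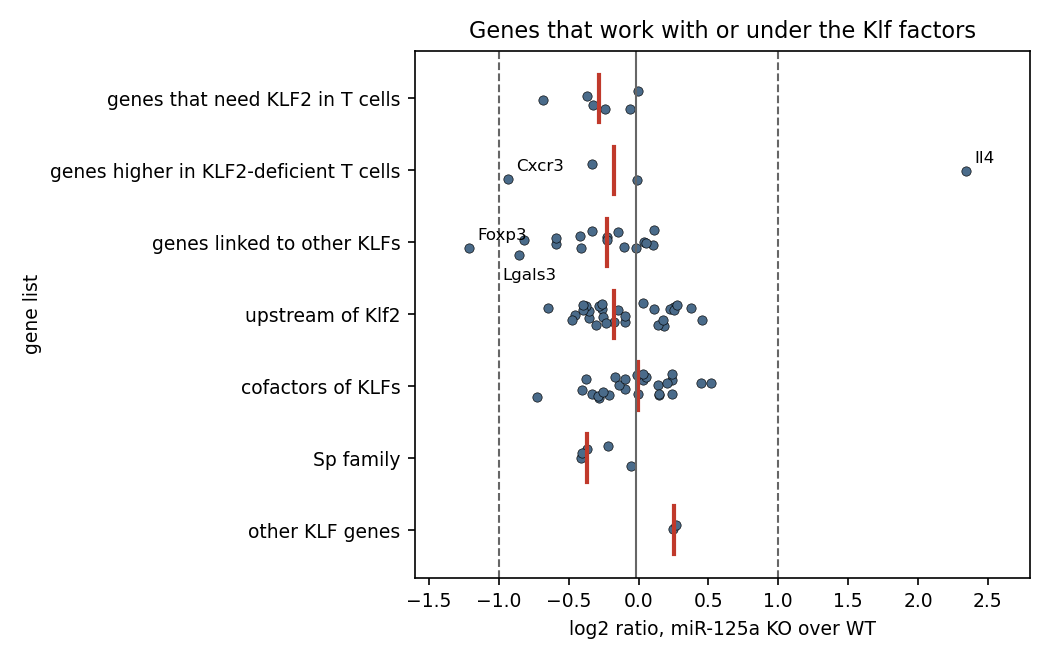
Log2 ratio of miR-125a KO over WT (horizontal) for the probe sets past the signal minimum of 7 gene lists (rows). Points are probe sets, spread vertically for visibility, red bars are list medians, the solid line is the median of all probe sets and dashed lines mark 2-fold. Il4, at 2.35, and Foxp3, at -1.21, are the points beyond 2-fold.

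Cofactors and relatives of the Klf proteins differed by less than 2-fold. Of 26 probe sets of cofactors past the minimum 14 were below 0, against 52.5% of all probe sets. Their median log2 ratio was -0.01. Sin3a had 988 in the miR-125a KO pool and 991 in the WT pool, and Ctbp1 had 4419 in the KO pool and 4003 in the WT pool. Hdac2, a deacetylase of the Sin3a complex, had the highest ratio of this list, 0.52, and 0.20 at its other probe set past the minimum. Kat2b, an acetyltransferase, had the lowest, -0.73, at a dim probe set of 82.0 in the KO pool and 147 in the WT pool. Its brighter probe set had -0.40. Sp1 and Sp3, zinc finger factors that bind the same GC boxes, had ratios below 0. Sp1 had 2974 in the KO pool and 3968 in the WT pool, a log2 ratio of -0.41 (probe-set SD 0.19), and its 3 probe sets were all below 0. Sp3 had 1779 in the KO pool and 2362 in the WT pool, a log2 ratio of -0.41. Of the Klf genes outside the members, Klf16 had 909 in the KO pool and 754 in the WT pool, a log2 ratio of 0.27 (probe-set SD 0.24), and Klf1 stood near the minimum at 80.2 in the KO pool and 65.0 in the WT pool. Klf5, Klf14, Klf15 and Klf17 were below the minimum.

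Klf2 and Klf4 are also used by endothelial and myeloid cells, so markers of these were read beside them. Of the 4 endothelial markers 1, Pecam1, passed the minimum, at 451 in the miR-125a KO pool and 623 in the WT pool, and the other 3 stood between 4.43 and 30.9 in the KO pool and between 4.37 and 40.2 in the WT pool. T cells can express Pecam1 too. The 6 macrophage, monocyte and dendritic cell markers summed to 348 in the KO pool and 476 in the WT pool, with 2 past the minimum. Fcer1g, 1 of those 2, was at least 2-fold lower, at 103 in the KO pool and 226 in the WT pool. Its log2 ratio was -1.02 (probe-set SD 0.38). It fell short of 2-fold with each of 3 other array scalings and with the larger pseudocount, and it did not pass the stricter filter. The 3 neutrophil markers summed to 35.2 in the KO pool and 145 in the WT pool, with 0 past the minimum. The 4 fibroblast and stroma markers were all below the minimum, at sums of 62.0 in the KO pool and 34.9 in the WT pool, as were both erythroid markers, at 7.03 in the KO pool and 10.8 in the WT pool. Of the 3 B cell markers 1 passed, at sums of 241 in the KO pool and 266 in the WT pool. Of the 4 plasma cell markers 2 passed, at sums of 538 in the KO pool and 1332 in the WT pool. Most of these sums was Igha, at 376 in the KO pool and 1160 in the WT pool. Mzb1, the other that passed, was near equal, at 93.6 in the KO pool and 95.4 in the WT pool. The part of other cells in the Klf2 and Klf4 ratios was not tested. In pooled bulk RNA, fewer cells that express a gene and less of its RNA per cell cannot be told apart.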

How the data were processed

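The deposited table held 1 log2 value per probe set and array. Per the submitters' processing notes these log2 values came from MAS5, with no version given. MAS5 subtracts mismatch signal, which makes dim values noisy. They were raised back to linear signals. The lowest deposited value, a signal of 1, is a bound and was held by 473 probe sets of the miR-125a KO and 552 of the WT array. Genes were named from the platform annotation, and all 36 member probe sets matched the RefSeq gene table (GRCm38.p6) by gene identifier. The pseudocount of 16.3 was the 25th percentile of all signals. Probe-set SDs were taken over 5030 genes read by 2 or more counted probe sets, in 10 groups by signal, and ran from 0.38 to 0.16. With 1 array per genotype no test was made, and calls are 2-fold differences. The steps were tested on simulated data. Python 3.11.15, pandas 2.3.3 and statsmodels 0.14.6 were used.

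Named were all members, Foxp3, Il2ra, Cd4, up to 2 genes at either end of each list, and the 3 genes most like Klf2 in signal. Foxo1, Foxo3, Mef2d, Mapk7, S1pr4, Cdkn1b, Tgfb1, Ccl5, Sin3a, Ctbp1, Ctla4 and the genes beside Klf3 were named after their values were seen. The members and lists were chosen with earlier results of these data known. Alternatives were 3 other array scalings, 2 other pseudocounts, 2 other filters, dropping those probe sets whose names mark cross-matching transcripts, 2 other folds, and 2 summaries per gene. Some listed genes had no value here and were not analysed.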

Additional observations from a re-analysis of the deposited data

How the results depend on the processing

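The Klf count of 2 probe sets at least 2-fold lower was the same with each of 3 array scalings, both pseudocounts, both filters and with cross-matching probe sets dropped. It was 0 at 3-fold, against 0.203% of all probe sets, and 3 of 28 at 1.5-fold, where Klf9 joined, against 7.15%. It was 1 when a gene's probe sets were averaged, where Klf4 had -0.70. The log2 ratio of Klf2 ranged from -1.41 to -1.27 and that of the brighter Klf4 probe set from -1.16 to -1.03 over 8 alternatives. The Klf median ranged from -0.28 to -0.06 over 10. All 208 alternative values of member ratios lay within 1 probe-set SD of the main one, and signs turned for 5 probe sets near 0, of Klf3, Klf6, Klf9 and Klf13. Of all probe sets at least 2-fold apart, 57.2% were lower, against 45.4% after loess scaling (206 lower, 248 higher) and 266 lower and 199 higher in the main setting. The median of other Klf genes turned to -0.01 with no filter, and that of cofactors turned above 0 in 2 of 10 alternatives. No paired analysis was possible because each genotype had 1 pooled sample. The pooling also means that no value here measures variation between mice.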

Other observations

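The 3 genes whose brightest probe set was nearest to that of Klf2 over the 2 log2 signals were Dgkh, Ypel2 and Dbp. Dgkh, a diacylglycerol kinase, stood at 370 in the miR-125a KO pool and 882 in the WT pool, at a distance of 0.14 on the log2 scale. Ypel2, a member of the yippee-like family, stood at 374 in the KO pool and 1099 in the WT pool, and Dbp, a transcription factor of the circadian clock, at 357 in the KO pool and 855 in the WT pool. With 2 arrays this likeness rests on 2 values per gene.

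The protein-coding neighbours of the members on the chromosome, 3 on each side in the RefSeq gene table, were read after the ratios of the members were known. Each neighbour was read at its brightest probe set only. Of the 6 neighbours of Klf2, 5 passed the minimum and had log2 ratios from -0.50 to 0.18. Of those of Klf4, 2 passed and had 0.36 and 0.39. On one side of Klf3, only Tbc1d1, the farthest of the 3, had a value. Its log2 ratio was 0.11, within the range of Klf3's own probe sets. The other genes on that side, Gm46913 and Gm38457, had no value here. On the other side, Tlr1 and Tlr6, receptors for bacterial lipoproteins that lie side by side there, were at least 2-fold lower, Tlr1 at 335 in the KO pool and 716 in the WT pool, a log2 ratio of -1.06, and Tlr6 at 62.6 in the KO pool and 186 in the WT pool, a log2 ratio of -1.36. The next gene, Fam114a1, had -0.78. Tlr6 lay in the lowest signal group, where the probe-set SD was 0.38 and 2.60% of probe sets were at least 2-fold lower. Among the neighbours of the other 9 members past the minimum, 1 to 5 per member, none reached 2-fold. Of all probe sets 1.38% were at least 2-fold lower and 1.03% at least 2-fold higher, so nothing is read from that absence.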
